A study of Mus musculus with 12 samples.

Results

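Chromosomes 13 and 18 of the mouse, whose ratios were low by small amounts in the tumour cells of this series, were taken as all array positions that the files place on either chromosome. They are 2 of the 19 autosomes and hold 2885 of 42404 probes, 1673 on chromosome 13 and 1212 on chromosome 18. The assay was array comparative genomic hybridisation, in which tumour DNA and reference DNA compete for the same oligonucleotide probes and the ratio of their signals follows relative copy number. Tumour DNA came from cultures of malignant peripheral nerve sheath tumours (MPNSTs) of P0-GGFβ3 transgenic mice, in which the P0 promoter drives GGFβ3, an isoform of neuregulin-1, in Schwann cells. Reference DNA on every array came from cultured non-neoplastic Schwann cells of wild-type C57BL/6J mice, kept in forskolin and NRG1β, which the tumour cultures were not after their first growth. Of the tumours, 7 had the C57BL/6J x SJL/J background, here called mixed, with passages given for 6: A18 (passage 11), A202 (6), A390 (7), A292 (8), A382 (8 and 9), A394 (5) and 231 Trig. On C57BL/6J there were 4 tumours, B86 (passage 6), B91 (9), B96 (8) and B76 (13). Several of these passages lie above the upper limit of 8 in the growth notes, and the animals' ages are not in the labels. Each tumour had 1 array except A382, whose 2 arrays were averaged, so n is 11 tumours. The labels name the tumours apart but do not say which came from the same animal, so p-values measure only the spread between these samples, and the reference's own spread is not in them.

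Malignant peripheral nerve sheath tumours arise from the Schwann cell lineage and commonly carry many gains and losses of whole chromosomes or arms. In array comparative genomic hybridisation a loss carried by all cells lowers a whole run of neighbouring probes, and it lowers them less where only some of the cells carry it or where the genome has more than the usual number of copies. A local edge inside a chromosome, where the ratio steps from a level to another, marks a break. A small offset can also come from how the dyes, the labelling or the probes behave, and then it is shared by every array that has the same dye orientation and the same reference. Here the dyes were never swapped, so such an offset cannot be told apart from a change that all tumours carry.

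The probes on both sides of the break that was called, in tumour A18, and the lowest probes of a short stretch that was low in all tumours, are given first, since those results turn on them. All lie on chromosome 13 in build mm9 and are written in lower case, 5′ to 3′ as the files give them, with no base singled out. The strand is not given in the files.
Bicd2, chr13:49438697-49438756, before the break: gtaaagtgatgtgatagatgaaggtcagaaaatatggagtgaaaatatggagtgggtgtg
Bicd2, chr13:49449198-49449257, last before the break: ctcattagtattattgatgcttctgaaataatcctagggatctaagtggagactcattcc
No gene name, chr13:49507606-49507665, the first after the break: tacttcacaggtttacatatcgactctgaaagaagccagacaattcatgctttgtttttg
Ippk, chr13:49519981-49520040, after the break: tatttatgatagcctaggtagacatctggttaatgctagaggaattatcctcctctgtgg
BC042511, chr13:103524869-103524917, low stretch: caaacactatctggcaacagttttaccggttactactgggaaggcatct
BC042511, chr13:103532112-103532171, low stretch: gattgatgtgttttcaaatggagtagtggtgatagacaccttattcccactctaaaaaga
In A18 the log2 ratios of the 4 probes around the break were -0.32, -0.77, -0.02 and 0.05, in the order above. The 2 probes of BC042511 had means over tumours of -0.61 and -0.68, and ranged from -0.82 to -0.47 and from -0.83 to -0.48, so neither reached 0 in any tumour.

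Chromosome 13 lay below the autosomal median in all tumours, but by very unequal amounts. The median log2 ratio of its probes was -0.36 in A202 and -0.21 in A18. In the other 9 tumours it was -0.14 in B76, -0.11 in B86 and B91, -0.10 in A390, -0.08 in 231 Trig and A292, -0.06 in A382 and B96, and -0.05 in A394. A202 thus stood well below all others, A18 came next, and the other 9 lay close together. The mean was -0.12 ± 0.09 (SD, n = 11), with a median over tumours of -0.10.

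On chromosome 18 the lowering was more alike between tumours, and the tumours at the ends differed from those of chromosome 13. The median log2 ratio was -0.28 in A390, which was the lowest, and -0.02 in A202, which was the highest. Between them came A18 and B76 at -0.18, B91 at -0.16, B86 at -0.15, A292 and A394 at -0.14, A382 at -0.13, B96 at -0.12 and 231 Trig at -0.08. The mean was -0.14 ± 0.07 (SD, n = 11), and the median over tumours was also -0.14. With this centring A202, the tumour with the deepest chromosome 13, was the highest on chromosome 18.

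**Figure D1:**
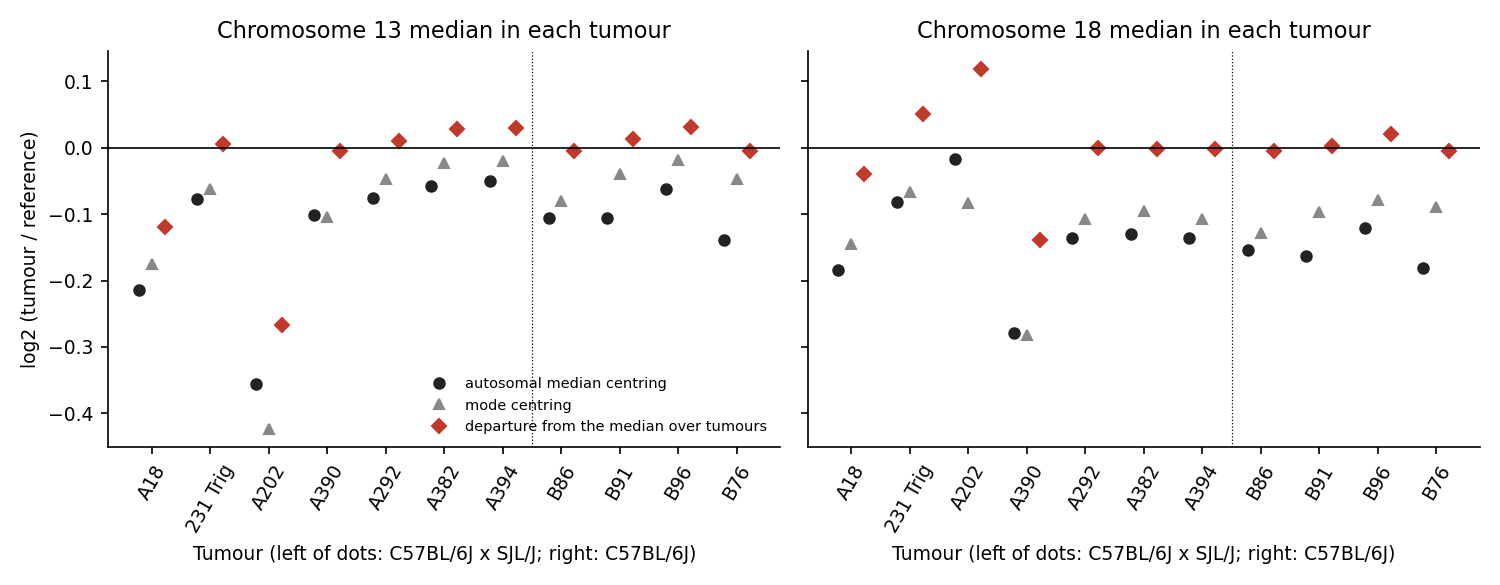
Median log2 ratio of chromosome 13 and chromosome 18 in each of the 11 tumours, mixed background left and C57BL/6J right of the dotted line, with autosomal median centring (circles), mode centring (triangles) and as departures from the median over tumours (diamonds). A202 at -0.36 on chromosome 13 and A390 at -0.28 on chromosome 18 lie apart from the other tumours, and with median centring A202 is near 0 on chromosome 18.

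Both chromosomes were below 0 in 11 of 11 tumours. A two-sided exact permutation test, which flips the signs of the tumours, gave p = 0.000977 for each, the smallest that 2048 flips allow, and 0.00371 after Benjamini-Hochberg adjustment over the 19 autosomes. These chromosomes were chosen with their low ratios in these data known, so the p-values describe the lowering and are not independent evidence of it. By the same test 5 of the 19 autosomes (26.3%) were lower, chromosomes 4, 9, 13, 16 and 18, and on 4 of 19 (21.1%) every tumour was below 0. Ordered by the median over tumours, chromosome 18 was the lowest autosome, followed by chromosome 8 at -0.12 and chromosome 13 at -0.10, with chromosomes 5 and 14 at -0.08. With each array centred on its mode, as described next, chromosome 18 was still the lowest at -0.10, but chromosome 13 at -0.05 came after chromosomes 8 (-0.09), 14 (-0.06) and 5 (-0.05). All values are relative to the other autosomes, among which chromosome 11 was raised in every tumour (mean 0.69), and leaving it out of the centring raised every value by 0.02 to 0.03.

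Centring each array on the mode of its autosomal probes, the most frequent ratio, in place of the median moved the 2 chromosomes differently from tumour to tumour. The mode lay 0.09 below the median in B76 and 0.07 above it in A202. With it the mean was -0.09 ± 0.12 (SD, n = 11) on chromosome 13 and -0.12 ± 0.06 on chromosome 18, and all tumours were still below 0 (exact sign-flip test, adjusted p = 0.00464 for both). On this scale chromosome 13 was -0.42 in A202, -0.18 in A18 and -0.10 in A390, and between -0.08 and -0.02 in the other 8 tumours. Chromosome 18 was -0.28 in A390, -0.15 in A18 and -0.07 in 231 Trig, and between -0.13 and -0.08 in the other 8. A202 was among these at -0.08, so it did not stand apart on chromosome 18 with mode centring. The chromosome 13 values of A382, B96 and A394 were each -0.02 by this centring, so in them the size of the lowering was close to 0.

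**Figure D2:**
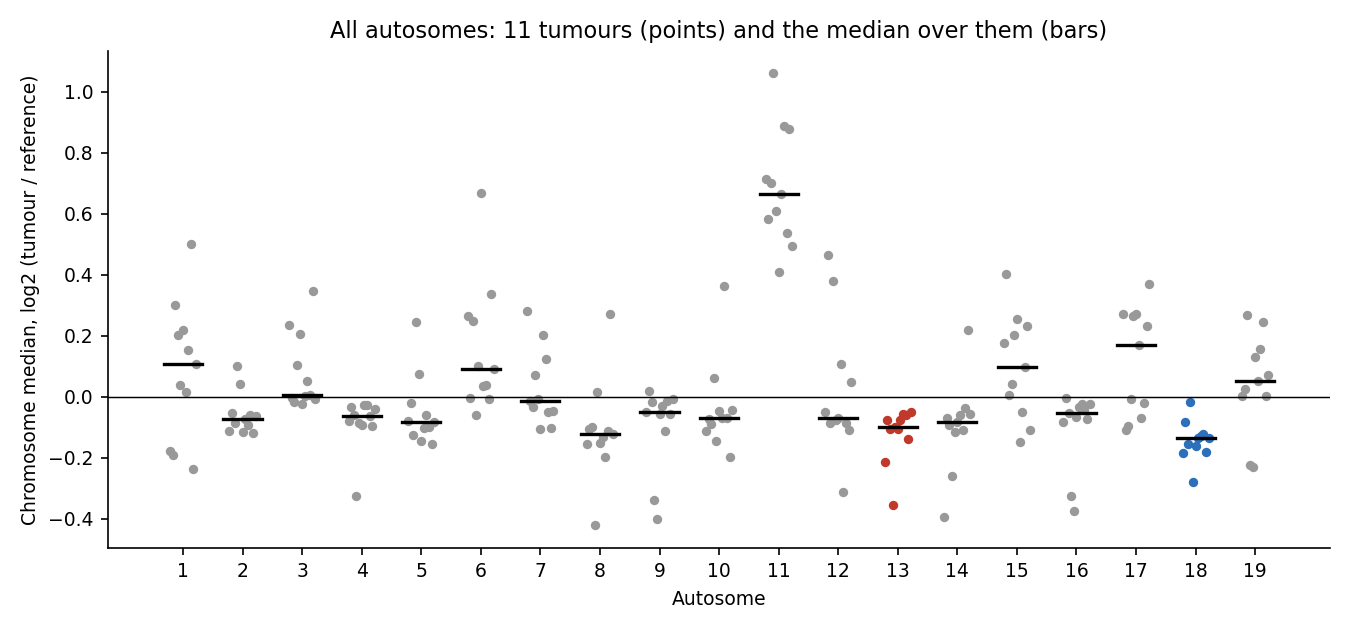
Median log2 ratio of every autosome in each of the 11 tumours, as points, with the median over tumours as a bar and chromosomes 13 and 18 in colour. Chromosomes 13 and 18 are below 0 in every tumour, as are chromosomes 4 and 16, and the median over tumours is lowest on chromosome 18 at -0.14.

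To separate what each tumour shows from what most tumours share, each probe's median over the 11 tumours was subtracted and each tumour was then centred on its mode. This departure takes away by construction any change that most tumours carry, whatever its origin. On chromosome 13 the departure was -0.27 in A202 and -0.12 in A18, and in the other 9 tumours it lay between -0.01 and 0.03. On chromosome 18 it was -0.14 in A390, -0.04 in A18, 0.05 in 231 Trig and 0.12 in A202, with the other 7 between -0.01 and 0.02. A202 and A18 on chromosome 13, and A390 on chromosome 18, were therefore the tumours whose ratios fell below the shared level, while A202 stood above it on chromosome 18.

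The share of probes below 0 gave the same order. On chromosome 13 it was 94.4% in A202 and 82.6% in A18, against 61.3% to 76% in the other tumours. On chromosome 18 it was 92.9% in A390 and 53.3% in A202, against 64.1% to 83.3% in the others. As linear ratios, the chromosome 13 medians of A202 and A18 were 0.78 and 0.86 of the reference, and the chromosome 18 median of A390 was 0.82. In a uniform population the loss of 1 copy gives -1 on the log2 scale from 2 copies, -0.58 from 3 and -0.42 from 4, so no chromosome median reached the size expected of a loss in every cell of a diploid culture. In DNA from a whole culture, a loss in a share of the cells and a smaller relative change in every cell cannot be told apart.

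A loss segment was defined as a fitted level of -0.2 or lower, and was counted when such levels covered at least 50% of the chromosome's probes. By this definition chromosome 13 was lost in A202 and chromosome 18 in A390, each as the single segment of its chromosome. With a limit of -0.1 the count rose to 5 tumours on chromosome 13 (A18, A202, B76, B86 and B91) and to 10 on chromosome 18 (all but A202), and with -0.3 it was A202 on chromosome 13 and none on chromosome 18. How many tumours are called thus depended on where the limit lay within the shared lowering.

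The lowering ran along nearly the whole of each chromosome. Windows of 5 Mb with at least 20 probes numbered 22 on chromosome 13, with 2 left out, and 18 on chromosome 18. On chromosome 13, 20 of the 22 windows (90.9%) were below 0 in all tumours, and on chromosome 18 12 of 18 (66.7%). On the other 17 autosomes it was 23 of 424 (5.42%). Those include the raised chromosome 11, and also chromosomes 4 and 16, whose medians were below 0 in every tumour. Chromosomes 13 and 18 were chosen with their low ratios known, so this contrast describes the lowering and is not independent evidence of it. The windows of chromosome 13 had medians over tumours from -0.17, at chr13:98514685-103448207, to -0.00, at chr13:18513788-23460029. Those of chromosome 18 ran from -0.22 at its first window, chr18:3254025-7958161, to -0.03 at its last, chr18:88988480-90762649, which held 20 probes. The level thus varied along both chromosomes by about as much as its own size.

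Within the tumours that stood apart the lowering was as continuous. All 22 windows of A202 on chromosome 13 lay between -0.41 and -0.27, and all 18 windows of A390 on chromosome 18 between -0.40 and -0.21. Relative to the shared level, A202 was between -0.33 and -0.23 in every window of chromosome 13, and A390 between -0.17 and -0.11 in every window of chromosome 18. On chromosome 18 the windows of A202 ran from -0.07 to 0.10, with 12 of 18 below 0, which is 0.06 to 0.15 above the shared level. Chromosome 13 of A18 was uneven, with its first 9 windows between -0.33 and -0.25 and the rest between -0.21 and -0.11.

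**Figure D3:**
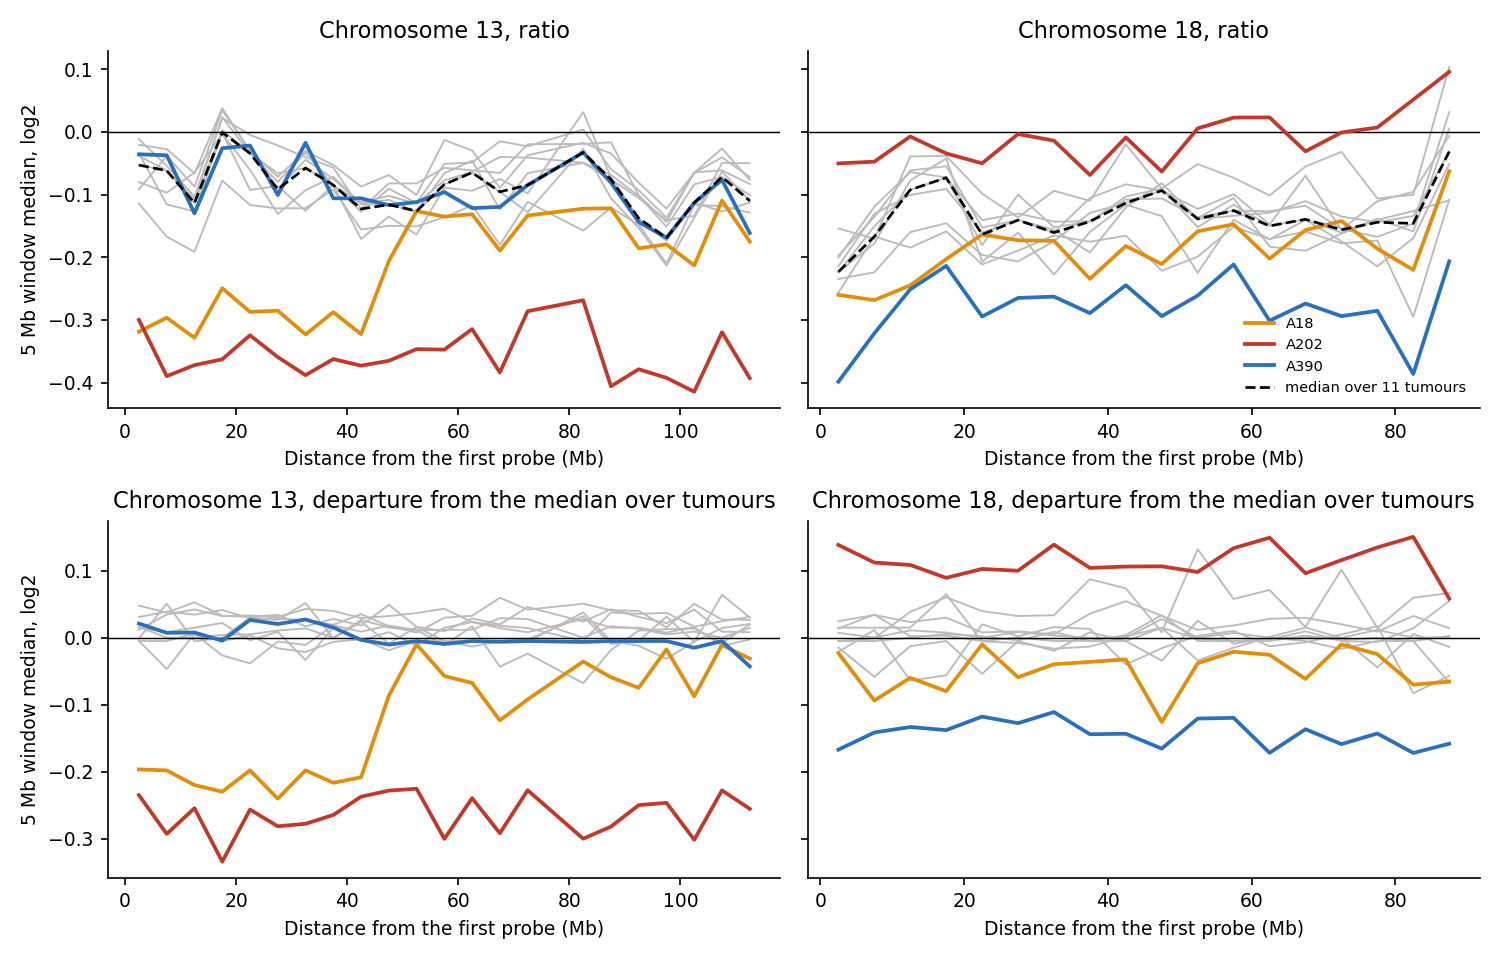
Median log2 ratio in windows of 5 Mb along chromosomes 13 and 18, by distance from the first probe, with A202, A18 and A390 in colour, the other 8 tumours in grey and the median over tumours dashed. The upper panels show ratios and the lower panels departures from the median over tumours. A202 on chromosome 13 and A390 on chromosome 18 are low along the whole length, and A18 is lower over the first 9 windows of chromosome 13 than after them.

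The A18 profile held the only break that segmentation called on either chromosome. It lay between the last Bicd2 probe, ending at chr13:49449257, and the next probe, starting at chr13:49507606, a gap of 58.3 kb. Bicd2 encodes a dynein adaptor, and Ippk, the first named gene after the gap, encodes the kinase that makes inositol hexakisphosphate. The level was -0.31 over the 662 probes before the break, 40% of those with a value, and -0.16 over the 994 probes after it. On the array of A18 the median rose across the break by 0.15 in the ratio, by 0.18 in the tumour channel and by 0.006 in the reference channel. On the other 11 arrays the same comparison gave -0.05 to 0.01 in the ratio, -0.03 to 0.07 in the tumour channel and -0.03 to 0.04 in the reference channel. Over the nearest 100 probes on each side the ratio rose by 0.18 in A18 and by 0.02 to 0.07 on the other 11 arrays. A step of this size was thus on the array of A18 alone and in its tumour channel, with a smaller rise in the same direction near the break on every other array.

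The position of the step did not move with the penalty doubled, halved or with at least 10 probes per segment, nor after adjustment for the probes' GC content. In departures from the tumour median it lay at a lower coordinate, between 49333617 and 49340425 in Susd3, with -0.23 before it and -0.07 after. On chromosome 18 no break was called in any tumour. With a penalty of 20 there were 13 breaks on chromosome 13 and 5 on chromosome 18. Of the 13, 7 lay at an edge of a short stretch of 12 probes that is described next, and 2 at the end of a longer one of 34 probes, chr13:102453093-104999844, that starts at the same probe. The longer stretch lay below the rest of the chromosome in 11 of 11 tumours, by -0.31 to -0.08.

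The short stretch, chr13:102453093-103532171, lies in Pik3r1, AK140701, Cd180 and BC042511. It holds no probe between chr13:102572161 and chr13:103448149, so it is not a continuous measured run, and the longer stretch spans the same gap. The AK140701 probe before the gap had a mean of -0.13, near the mean of the whole chromosome. The short stretch was chosen after the profiles were seen. Pik3r1 encodes the p85α regulatory subunit of PI3-kinase, and Cd180 a Toll-like receptor relative of B cells. The stretch lay below the rest of chromosome 13 in 11 of 11 tumours, by -0.29 in A18 to -0.49 in B86, with a mean of -0.38 ± 0.06 (SD, n = 11). There the tumour channel was 0.18 to 0.45 lower than on the rest of the chromosome, and the reference channel differed by -0.01 to 0.25. Relative to the other tumours no tumour but A202 stood out, since the departures were -0.07 to 0.06 in 10 tumours and -0.36 in A202, where the whole chromosome was low. The part of the reference channel in this stretch was not tested.

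Other stretches were also called, or looked at after the profiles were seen. The 10 probes of chr13:45609767-46362653, in Gmpr and Atxn1, were 0.15 to 0.36 below the rest of the chromosome in all tumours, and there the reference channel was brighter by 0.40 to 0.75. The arrays split by slide there. The reference channel was 0.67 to 0.75 above the rest in the 4 tumours of slide 1, which was read on another scanner, and 0.40 to 0.49 in the other 7. The tumour channel was 0.21 to 0.53 above the rest on slide 1 and between -0.02 and 0.04 in the other 7. Departures from the tumour median ran from -0.36 in A202 to 0.17 in B86 on slide 1 and from -0.02 to 0.06 elsewhere. The part of the scanner in this stretch was not tested. Atxn1, the gene of spinocerebellar ataxia type 1, had a mean of -0.54. The first 125 probes of chromosome 18, chr18:3254025-12378013, were lower than the rest by 0.06 to 0.14 in all tumours, in both channels, and had a mean GC content of 34.4% against 35.9%. At chr18:14903583-23905673, 97 probes lay -0.01 to 0.14 from the rest, below it in 2 of 11 tumours and above it in the other 9, and the reference channel was 0.15 to 0.24 dimmer there.

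Segmentation of the departures added a short stretch in B76, and a step of -0.03 in A390 within Tbc1d7. In B76, 5 probes at chr13:23516686-23572472 lay 0.41 below the rest of the chromosome, and the departure from the other tumours was -0.54. The 3 probes behind it lie in the butyrophilin genes Btn1a1 (-0.55) and Btn2a2 (-1.04 and -0.74). The tumours other than B76 lay between -0.27 and 0.25 for Btn1a1. The Btn2a2 probe at -1.04 was below 0 in 11 of 11 tumours, with a mean of -0.46 and a highest value of -0.08, and the other Btn2a2 probe had a mean of -0.14 and reached 0.39. This stretch was also chosen after the profiles were seen, and rests on 3 probes on 1 array.

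The channels of each array were then read apart, as log2 brightness relative to the array's autosomal median after adjustment for GC content. A chromosome's median brightness depends on which probes it holds, so only differences between arrays bear on the tumours. On chromosome 13 the tumour channel averaged -0.16 ± 0.08 (SD, n = 11 tumours), at -0.37 in A202, -0.26 in A18 and -0.19 in B76, with the other 8 reaching -0.09. The reference channel on chromosome 13 was -0.009 ± 0.0098 (SD, n = 12 arrays), between -0.02 and 0.01, and was 0.01 in A202 and -0.006 in A18. On chromosome 18 the tumour channel was -0.10 ± 0.08, at -0.22 in A390, -0.18 in B76 and 0.08 in A202. The reference channel there was 0.09 ± 0.018, between 0.07 and 0.13, with 0.08 in A390. The tumours that stood apart therefore did so in their own channel, while the reference channel varied less. It was higher on slide 1, which was read on another scanner, than on slides 2 and 3. On chromosome 13 it was -0.006 to 0.01 on slide 1 and -0.02 to -0.008 elsewhere. On chromosome 18 it was 0.0981 to 0.13 on slide 1, highest in A202, and 0.07 to 0.0975 elsewhere. The part of the scanner in this difference was not tested.

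By the mean over tumours, the tumour channel was lower on chromosome 13 (-0.16) than on any other autosome, with chromosome 14 next at -0.15. By the median over tumours, chromosomes 14 (-0.136) and 12 (-0.133) were lower than chromosome 13 (-0.130). On chromosome 18 the tumour channel lay on average below and the reference channel above the autosomal median. On the other autosomes except chromosome 11 the reference channel averaged between -0.10 and 0.17, so the 0.09 of chromosome 18 lay inside the range of the others. The part of the reference channel in the low ratio of chromosome 18 was not tested.

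**Figure D4:**
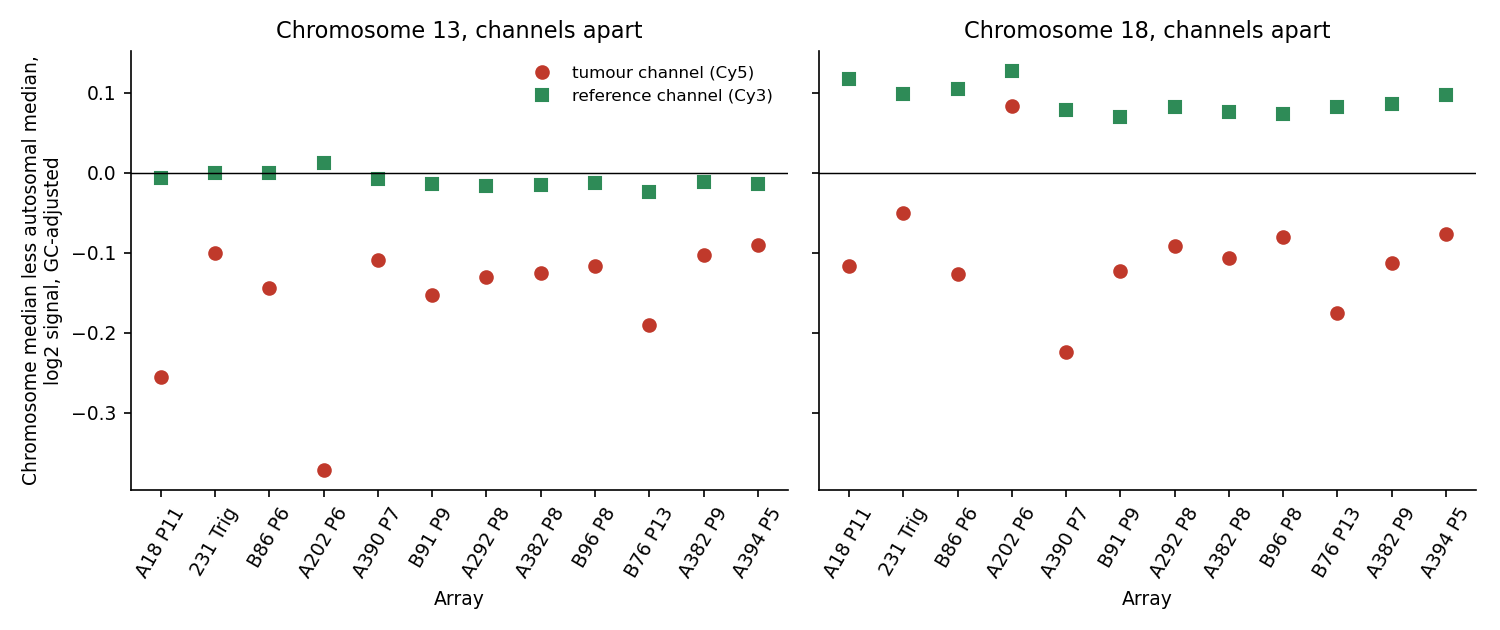
Median log2 brightness of chromosomes 13 and 18 in the tumour channel (circles) and in the reference channel (squares) of each of the 12 arrays, less the array's autosomal median and adjusted for GC content. The reference channel stays between -0.02 and 0.01 on chromosome 13 and between 0.07 and 0.13 on chromosome 18, while the tumour channel falls to -0.37 in A202 and -0.22 in A390.

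The 2 arrays of A382, from passages 8 and 9, differed by 0.02 on chromosome 13 and by 0.00 on chromosome 18. Over the 19 autosomes their median absolute difference was 0.0149, with the highest on chromosome 11, at 0.11. A18, 231 Trig, B86 and A202 shared slide 1, which was read on another scanner than slides 2 and 3. The noise SD, from the spread between adjacent probes, was 0.18 to 0.25 by tumour. With A382 counted on slide 2, the means per slide were -0.19, -0.08 and -0.08 on chromosome 13 and -0.11, -0.18 and -0.15 on chromosome 18. Without slide 1, which holds A202 and A18, chromosome 13 was -0.08 and chromosome 18 was -0.16 (n = 7, exact sign-flip test, adjusted p = 0.0495 for both).

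No difference between the strain backgrounds passed on either chromosome. On chromosome 13 the means were -0.13 in the 7 mixed tumours and -0.10 in the 4 C57BL/6J tumours, a difference of -0.03 (exact permutation test over 330 splits, two-sided, p = 0.721, adjusted over 19 autosomes 0.856). On chromosome 18 they were -0.14 and -0.15, a difference of 0.02 (exact permutation test, p = 0.673, adjusted 0.852). Within slides the difference was -0.11, 0.03 and 0.05 on chromosome 13 and 0.06, -0.02 and 0.01 on chromosome 18. All 3 tumours that stood apart, A202, A18 and A390, were of the mixed background. The C57BL/6J tumours, taken alone, had means of -0.10 and -0.15, for which 4 tumours allow no exact p below 0.125.

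The 2 chromosomes did not differ from each other beyond the spread over tumours. Chromosome 18 minus chromosome 13 was -0.02 ± 0.13 (SD, n = 11, exact sign-flip test, p = 0.640), although chromosome 18 was the lower in 9 of 11 tumours. The exceptions were A202, at 0.34, and A18, at 0.03. Without A202 the difference was -0.06 with p = 0.00586 (exact sign-flip test, n = 10), so this comparison rested on that tumour.

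Genes followed their chromosome. A gene's value is the mean of its probes, and a gene is said to have fallen or risen when limma gave an adjusted p under 0.05 over all genes and the mean was at least 0.2 from 0. On chromosome 13, 245 of 770 genes tested fell (31.8%) and 17 rose (2.21%), and on chromosome 18 218 of 556 fell (39.2%) and 8 rose (1.44%). Over all 19977 genes tested, 15.4% fell and 18% rose. The median gene mean was -0.13 on chromosome 13, -0.15 on chromosome 18 and 0.00 on the other autosomes. The middle 50% of genes lay between -0.23 and -0.03, between -0.26 and -0.07, and between -0.13 and 0.15, in the same order, so whole distributions were displaced and not a few genes. Below 0 in every tumour were 322 genes of chromosome 13 (41.8%) and 256 of chromosome 18 (46.0%), against 9.38% of 18651 genes elsewhere. The chromosomes were chosen with their low ratios known, so these contrasts describe the lowering and are not independent evidence of it.

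**Figure D5:**
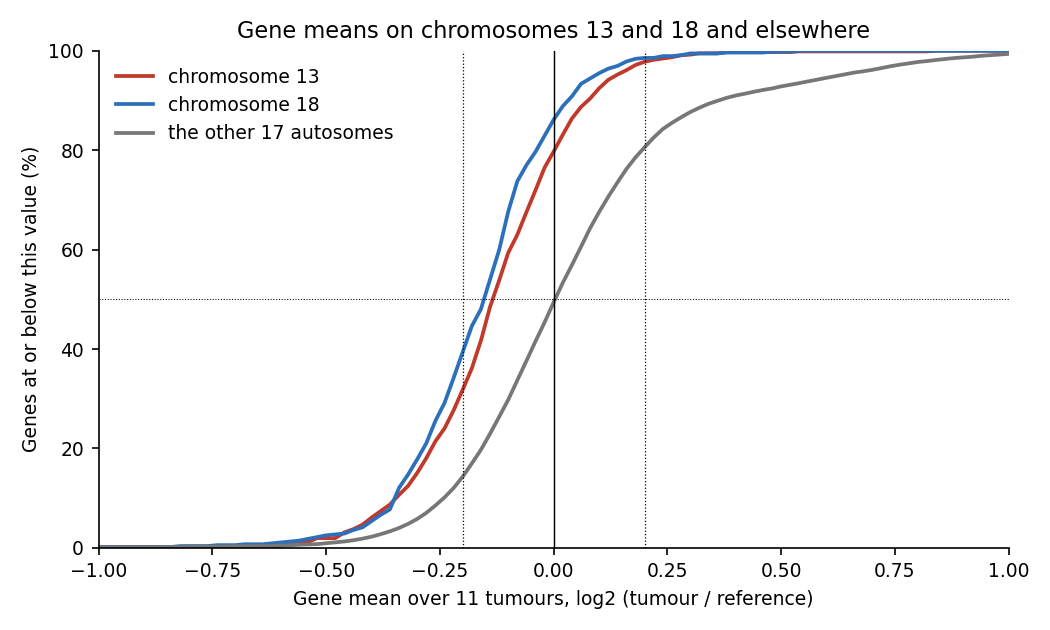
Cumulative share of genes by mean log2 ratio over the 11 tumours, for chromosome 13 (770 genes), chromosome 18 (556 genes) and the other autosomes (18651 genes). The curves of chromosomes 13 and 18 lie left of the others, with medians of -0.13, -0.15 and 0.00.

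Measured against its own chromosome's median in each tumour, 95 genes of chromosome 13 and 58 of chromosome 18 fell, all of them among those above, while 75 and 41 rose. Of the 245 and 218 genes that fell, 150 and 160 therefore passed by their chromosome's level together with their own. With each probe replaced by the running median of 5 neighbours, 97 of the 245 and 130 of the 218 genes fell again, and 1 and 0 rose. With mode centring 204 and 177 genes fell. Genes with a single probe made up 88.2% and 62.5% of those that rose, against 43.6% and 40.8% of the genes tested. Most genes that rose thus had a single probe.

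Of the growth factor receptors and regulators of Ras and PI3-kinase, 4 of 12 measured genes fell and none rose. On chromosome 13 it was 1 of 7 (median -0.07) and on chromosome 18 3 of 5 (median -0.20). Of all genes tested, 31.8% fell on chromosome 13, 39.2% on chromosome 18 and 15.4% over all autosomes. Neither this list nor those that follow were tested against these shares. Pik3r1 ranged from -0.81 in A202 through a median of -0.44 to -0.28 in B91. Its mean of -0.47 ± 0.16 (SD, n = 11; limma, adjusted p = 9.4e-07) was the lowest of the list, in 4 probes between 102453093 and 102516215. These probes open the short low stretch described above, which was chosen after the profiles were seen. In the reference channel they averaged -1.87, -1.23, -0.64 and 0.04, so most were dim. Rasa1, the p120 Ras GTPase-activating protein, ranged from -0.48 in A202 through -0.10 to 0.02 in B96 and did not pass, with a mean of -0.14. Fgfr4 (-0.13), a fibroblast growth factor receptor, the neurotrophin receptor gene Ntrk2 (-0.07) and the kinase gene Map3k1 (-0.01) did not pass either.

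On chromosome 18 the members that fell were Csf1r, the receptor of macrophage colony-stimulating factor, at -0.20, Spry4, an inhibitor of receptor signalling, at -0.22, and the MAP3 kinase gene Map3k8 at -0.23. Csf1r reached -0.46 in A18, and Map3k8 ran from -0.38 in A390 to -0.04 in A202, as did the chromosome. Pdgfrb, a platelet-derived growth factor receptor, at -0.16 and Fgf1 at -0.13 did not pass. With mode centring none of the 3 passed, at -0.17 for Csf1r and -0.20 for Spry4 and Map3k8, which then lay just inside the size limit. With the running median of 5 probes Csf1r and Spry4 were at -0.11 and did not pass. Measured against their own chromosome, no member on chromosome 18 fell. On chromosome 13 Pik3r1 was the only one that fell, and 1 of the 7 rose.

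In TGF-beta and BMP signalling 4 of 8 genes fell and none rose, 2 of 5 on chromosome 13 (median -0.13) and 2 of 3 on chromosome 18 (median -0.33). The shares over all genes of these chromosomes were 31.8% and 39.2%. Smad2, a receptor-regulated Smad of the TGF-beta branch, ranged from -0.67 in A18 through -0.42 to -0.22 in B91, with a mean of -0.39 ± 0.13 (limma, adjusted p = 1.98e-06). Smad7, the inhibitory Smad, ranged from -0.47 in A390 through -0.36 to -0.07 in A202, with a mean of -0.33. Smad4, the common partner Smad and a tumour suppressor, had a mean of -0.19, which misses the size limit, between -0.34 in 231 Trig and -0.05 in A202. With own-chromosome centring 2 of the 8 fell, Smad2 and Fst. With the running median of 5 probes 1 of the 8 fell, Smad7, and Smad2 (-0.16) and Smad5 (-0.14) did not pass. The 3 Smad genes of chromosome 18 lie within 2.61 Mb of each other, between chr18:73837507 and chr18:76447741, and are not separate observations of the chromosome.

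On chromosome 13 the activin antagonist gene Fst fell by 0.55 on the log2 scale, from -0.65 in B91 to -0.38 in A18, on 1 probe, and was -0.17 and did not pass with the running median of 5 probes. Smad5, a Smad of the BMP branch, fell with a mean of -0.27, but its probes disagreed, with means of -0.60 and 0.05. Tgfbi (-0.13), Bmp6 (-0.05) and Inhba (-0.01), which encode a matrix protein induced by TGF-beta and ligands of the family, did not pass.

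Of the Wnt, hedgehog and adhesion genes and other tumour suppressors, 7 of 12 fell and none rose, 3 of 4 on chromosome 13 (median -0.27) and 4 of 8 on chromosome 18 (median -0.19). Over all their genes these chromosomes had 31.8% and 39.2% fallen. Gli3, a transcription factor of hedgehog signalling, ranged from -0.73 in A18 through -0.38 to -0.20 in A390. The tumours of slide 1 were its 4 lowest, at -0.73, -0.70, -0.70 and -0.65, and did not overlap the other 7, of which A394 was the lowest at -0.46. Its mean was -0.47 ± 0.19 (limma, adjusted p = 3.41e-06), and the part of the scanner in this gap was not tested. Ptch1, the hedgehog receptor, had a mean of -0.22 with -0.47 in A202, but did not pass with mode centring (-0.19), against its own chromosome (-0.09) or with the running median (-0.14). Nsd1, a histone H3 methyltransferase, had a mean of -0.32 with -0.56 in A202, while Jarid2 (-0.12) did not pass.

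Apc, the Wnt pathway suppressor on chromosome 18, ranged from -0.32 in B86 through -0.10 to -0.02 in A202 and did not pass, with a mean of -0.12. Mcc, another gene of chromosome 18, fell to a mean of -0.26, with -0.41 in A390, but was -0.14 with the running median and did not pass. Bin1, a membrane-curving adaptor and Myc interactor, fell to -0.34, but B86 at -0.84 was far below the other tumours. The netrin receptor gene Dcc (-0.12) and Ctnna1 (-0.12), which encodes α-catenin, did not pass. Against its own chromosome Gli3 alone fell of the 12, and with the running median 3 did, Gli3, Nsd1 and Bin1.

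Among genes of the cell cycle, mitosis, DNA repair and telomerase, 9 of 16 fell and none rose, 6 of 10 on chromosome 13 (median -0.22) and 3 of 6 on chromosome 18 (median -0.16). The shares over all genes of the 2 chromosomes were 31.8% and 39.2%. Gadd45g, a growth arrest gene induced by DNA damage, ranged from -0.73 in B76 through -0.69 to -0.46 in B86. It had the lowest mean of the list, -0.62 ± 0.10 (limma, adjusted p = 4.25e-09), on 1 probe. Tert, which encodes the catalytic subunit of telomerase, had a mean of -0.30, from -0.59 in A202 to -0.14 in 231 Trig. Plk2, a polo-like kinase, had a mean of -0.33, E2f3 of -0.20 and Ccnh of -0.24, while Ccnb1, which encodes cyclin B1, was at -0.00.

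On chromosome 18 the mitotic kinesin gene Kif20a fell with a mean of -0.34. Its values ran from -0.60 in A390 and B91 through -0.42 to -0.01 in A202. Cdc23, a subunit of the anaphase-promoting complex, and Esco1, a cohesin acetyltransferase, fell to -0.20 each. These means lie at the size limit, and of 19 other settings Cdc23 lost its call in 11 and Esco1 in 7. Cdc25c (-0.04) and Rbbp8 (-0.13), the gene of the end-resection factor CtIP, did not pass. Against their own chromosomes 2 of the 16 genes fell and 2 rose. With mode centring 6 of the 16 fell, without E2f3 (-0.18), Cdc23 (-0.18) and Esco1 (-0.17). With the running median 3 fell, and Tert (-0.13), Plk2 (-0.17), Ccnh (-0.12), E2f3 (-0.05), Kif20a (-0.05) and Cdc23 (-0.10) did not pass.

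Of the Schwann cell and neural crest genes 7 of 9 fell and none rose, 3 of 4 on chromosome 13 (median -0.26) and 4 of 5 on chromosome 18 (median -0.28). Over all genes of these chromosomes 31.8% and 39.2% fell, and the list was not tested against these shares. Foxc1, a neural crest transcription factor, had the lowest mean, -0.59 ± 0.14 (limma, adjusted p = 2.79e-08), on 1 probe. Id4 followed with -0.30 and Edn1, the gene of endothelin 1, with -0.21. Egr1, an immediate early transcription factor, ranged from -0.71 in B86 through -0.33 to 0.03 in A202, with a mean of -0.36. Cdh2, the N-cadherin gene, fell to -0.33, Tcf4 to -0.28 and Zeb1 to -0.26. Mbp, which encodes myelin basic protein, did not pass against the reference, with a mean of 0.06 and 0.31 in A202, but rose against its own chromosome's median by 0.20 (limma, adjusted p = 9.76e-06). With that centring 2 of the 9 genes, Foxc1 and Egr1, fell. Edn1 did not pass with mode centring (-0.19). With the running median 2 of the 9 fell, Egr1 and Tcf4, while Foxc1 (-0.12), Id4 (-0.07), Edn1 (-0.13), Cdh2 (-0.16) and Zeb1 (-0.13) did not pass.

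In families of neighbouring, similar genes 7 of 33 members fell on chromosome 13 (median -0.11) and 3 of 30 on chromosome 18 (median -0.08), where 2 also rose. Over all genes of these chromosomes the shares that fell were 31.8% and 39.2%. Against their own chromosome 4 fell and 6 rose on chromosome 13, and 2 fell and 5 rose on chromosome 18. With mode centring 7 of the 10 members fell, and with the running median 4 of the 63 fell and none rose. Probes of such genes can take up DNA of their copies, so their values are uncertain. On chromosome 13, 5 of 10 Serpinb genes fell (median -0.20), 1 of 15 prolactin family genes (median -0.07), 1 of 5 histone genes and none of 3 Naip genes. The Naip genes had a median of 0.03. On chromosome 18, 2 of 19 Pcdhb protocadherin genes fell and 2 rose, from -0.62 for Pcdhb14 to 0.29 for Pcdhb4. None of 6 desmoglein genes (median -0.10) and none of 3 desmocollin genes passed.

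The lowest gene means were single-probe values or genes whose probes disagreed. On chromosome 13 these were Mxd3, which encodes a Max-binding repressor, at -0.69 ± 0.11 (range -0.89 in B91 to -0.49 in A18; limma, adjusted p = 1.83e-09), Tspan17 at -0.65, Gadd45g, Uimc1 at -0.59 and Foxc1. The 2 probes of Uimc1 had means of -1.04 and -0.15. On chromosome 18 the lowest was the cDNA AK041908, at -1.0 ± 0.15 (limma, adjusted p = 6.98e-10), followed by AK042350 at -0.82, the tubulin gene Tubb6 at -0.75, B4galt6 at -0.69 and Pcdhb14. With the running median Tspan17 (-0.01), Foxc1 (-0.12) and Pcdhb14 (-0.09) did not pass. B4galt6, a galactosyltransferase gene, was -1.07 in A390 and -0.21 in A202, and its probes had means of -1.26 and -0.12. Tubb6 was -1.42 in A202, against -0.85 to -0.50 in the others, and 1 of its 2 probes was not well above background on every array.

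The highest means were 0.84 for the cDNA AK019632, 0.54 for Gapt, 0.38 for the granzyme gene Gzma, 0.37 for AK017511 and 0.31 for Arsk on chromosome 13. On chromosome 18 they were 0.52 for AK028463, 0.48 for AK090335, 0.36 for Grp, which encodes gastrin-releasing peptide, 0.29 for Pcdhb4 and 0.26 for Stard6. None of these 10 genes passed as raised with the running median of 5 probes, and 8 of them were then below 0. AK019632 was raised in every tumour, from 0.46 in A202 to 0.99 in 231 Trig, on 1 probe, and was 0.01 with the running median of its neighbours.

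The genes that differed most between tumours are given next, chosen after their values were seen. Sfrp4, a secreted Wnt antagonist on chromosome 13, had a single probe at chr13:19723975-19724034 and ranged from -1.37 in B76 through -0.82 to 0.54 in 231 Trig. It was at or below -0.82 in 6 tumours and at or above -0.20 in the other 5, and its mean was -0.58 ± 0.72 (limma, adjusted p = 0.0105). All 4 C57BL/6J tumours were at or below -1.01, but the strain difference of 1.01 had an adjusted p of 0.309 by limma. The olfactory receptor gene Olfr1362 was -1.02 in A18 and -1.0 in A202, against 0.09 to 0.57 in the other 9 tumours. A18 and A202 were also the tumours with the lowest chromosome 13, at -0.21 and -0.36. Both were of the mixed background and on slide 1, which was read on another scanner. No link of this gene with any of these was tested. No gene of either chromosome differed between the strain backgrounds by limma after adjustment (0 of 770 and 0 of 556), against 3 of 19977 genes tested (0.015%). At an unadjusted limma p under 0.05 there were 15 and 16 genes, against 2051 of the 19977, so these chromosomes held no excess.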

How the data were processed

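The members and gene lists were chosen with earlier results of these data known. The deposited ratios are log10 of tumour (Cy5) over reference (Cy3) signal, per the file headers, after background subtraction, detrending and linear dye normalization within each array. The deposited intensity columns hold the brightness of each channel, per the file headers. Software and build, per the submitters' processing notes, were Agilent Feature Extraction 9.5 and mm9. Exons and introns are not given, since no mm9 annotation was used here. The value table of the series repeats the log10 ratios as deposited.

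Ratios were converted to log2, spots with outlier marks were set to missing, spots of a probe were averaged and each array was centred on its autosomal median. Genes needed values in at least 8 tumours and their mean over tumours was set against 0 with limma (3.58.1, under R 4.3.3). Profiles were segmented by penalised least squares (penalty of 40 noise variances per break, at least 5 probes, values limited to 3 noise SD). Channels were adjusted by a cubic curve in GC content. The steps were tested on simulated data. Other steps used numpy 2.4.6, pandas 2.3.3 and Python 3.11.15, with figures from matplotlib 3.10.9. On each array 99.4% of probes or more exceeded background clearly in both channels, with the lowest share in A202, and no spot was saturated. Spots set to missing were 1.99% in A202 and 0.72% to 0.95% on the other arrays of slide 1. On slides 2 and 3 they were 0.06% to 0.11%. The number of arrays limits the precision.

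Named were up to 5 members of each list per chromosome in list order, the 5 highest and 5 lowest means per chromosome among genes that passed and had 1 sign in 9 or more of the 11 tumours, up to 3 genes of a short segment, and the genes beside a break. Tert was named outside this rule and is not in the counts of named genes below. Alternatives were other centrings, background corrections, loess, GC adjustment, probe filters, segmentation settings, slides and left-out tumours.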

Additional observations from a re-analysis of the deposited data

Results flagged for a closer look

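Of 164 sets of 4 or 7 tumours of a background, 15 held a tumour whose gap to its nearest neighbour exceeded Dixon's 95% critical value, and chance alone gives about 1 in 20. In the mixed background the mode-centred median of chromosome 13 was -0.42 in A202, with the next at -0.18, and that of chromosome 18 was -0.28 in A390, with the next at -0.15. With autosomal median centring, in departures and in the tumour channel, neither tumour exceeded the critical value on these chromosomes. On chromosome 13, A202 was also apart for Rasa1 (-0.48), Tgfbi (-0.41), Nsd1 (-0.56), Ccnb1 (-0.20) and AK019632 (0.46, below the others). On chromosome 18, A202 was apart for Ctnna1 (0.12, above the others) and Tubb6 (-1.42). A18 was apart for Csf1r (-0.46) and the histone gene H2ac6 (-0.62), and A390 for Cdh2 (-0.49). In the C57BL/6J background B86 was apart for Bmp6 (-0.093), Apc (-0.32) and Gadd45g (-0.46, above the others).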

How the results depend on the processing

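Both chromosome medians were counted as unchanged under 14 of 15 alternatives. For the C57BL/6J tumours taken alone this meant only a mean within the SD of the main mean, since 4 tumours cannot pass the exact test. Another alternative, the value table, repeats the main ratios. The exception, departures from the tumour median, gave -0.026 (exact sign-flip test, adjusted p = 0.987) on chromosome 13 and 0.00022 on chromosome 18, since it removes what most tumours share. Departures, and leaving out tumours that stood apart, were chosen after seeing the data. Leaving out each tumour in turn gave -0.13 to -0.10 and -0.16 to -0.13. Without A202 and A18 chromosome 13 was -0.09, and 199 genes fell. Chromosome 18 minus chromosome 13 was -0.079 without slide 1 (p = 0.0156), -0.045 without A202 and A390 (p = 0.0117), both by exact sign-flip tests, and -0.058 (without A202) to -0.0062 (without A390) with each tumour left out.

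Genes that fell numbered 95 and 58 with each chromosome's own centring, and 133 on chromosome 13 with the running median of 5 probes. Genes that rose numbered 75 and 41 with own centring, 1 and 0 with the running median, and 32 on chromosome 13 without slide 1. With each tumour left out 213 to 256 genes fell on chromosome 13 and 194 to 239 on chromosome 18. Of 47 named genes called, 11 were called under every setting, 19 lost the call with own centring and 21 with the running median. Those that lost it under most of the 19 settings were Cdc23 (11), E2f3 (8), and Csf1r, Esco1 and Edn1 (7 each). With the running median 9 changed sign, to -0.0085 for Pcdhb11, -0.023 for AK028463, -0.053 for Gzma, -0.063 for Pcdhb4, -0.093 for AK090335, -0.10 for Arsk, -0.15 for Gapt, -0.16 for Stard6 and -0.18 for AK017511. The cause was not tested.

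Breaks numbered 13 and 5 with a penalty of 20, and 4 on chromosome 13 in departures. Loss segments were counted in 5 and 10 tumours at -0.1, and on chromosome 18 in 0 tumours at -0.3 and in departures. The reference channel moved to -0.049 and 0.052 when chromosome 11 was left out of the centring, and to 0.066 on chromosome 18 without the GC adjustment. No paired analysis was possible because the labels carry no replicate numbers shared between the backgrounds.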
